A study of Mus musculus with 4 samples.

Results

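The endocannabinoid system was described here through 8 genes: the cannabinoid receptor CB2 (Cnr2), the enzymes that make its lipid ligands (Napepld, Dagla, Daglb) and the enzymes that break them down (Faah, Mgll, Abhd6, Abhd12). All 8 were found among the 23418 gene symbols of the table. They were measured by RNA sequencing of B cells sorted out of cervical lymph nodes, which drain the head and neck, in mice of genotype BL/10 (the control) and of genotype NOD.B10, with 2 libraries each and total counts between 19328803 and 29372751 reads. NOD.B10 is a congenic strain, with an H2 region from a C57BL/10 mouse on the autoimmune-prone NOD background, and serves as a model of Sjögren's disease. No treatment, age, sex or number of animals was given in the labels used here, and nothing says that libraries of 1 strain represent different animals, so p-values reflect no more than how these libraries scatter, which may be technical. Faah was picked by its low level in NOD.B10, so its values in this comparison are a description with no test. The other 7 were added as the receptor and enzymes of the same pathway and were not picked for their own change.

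Endocannabinoids are lipids cut from membrane phospholipids on demand rather than stored. Anandamide, an N-acylethanolamine, is released by NAPE-PLD (Napepld) among other routes and hydrolysed by fatty acid amide hydrolase (Faah). The other main ligand, 2-arachidonoylglycerol, is made by the diacylglycerol lipases (Dagla, Daglb) and hydrolysed mainly by monoacylglycerol lipase (Mgll), with ABHD6 and ABHD12 as further hydrolases. CB2 is the cannabinoid receptor of immune cells and is abundant in B cells, whereas CB1 (Cnr1) is best known from neurons.

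In NOD.B10 the Faah level was a small part of that in BL/10, while 3 of the other 7 genes, Cnr2, Mgll and Abhd12, were higher and none was lower. Of these 7, 6 passed the filter on low counts. Over all 13075 genes tested, 6.55% were called higher, 8.63% lower and 15.2% in either direction (edgeR quasi-likelihood test, Benjamini-Hochberg adjusted p under 0.05). The median log2 fold change was 0.29 for the 6 and 0.00 for all genes tested. The synthetic enzymes Napepld and Daglb and the hydrolase Abhd6 were not called, and Dagla was close to the limit of detection. Outside the 8 genes, Cnr1 was higher in NOD.B10 as well.

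Promoter sequences are shown for Faah and Mgll, which differed most between the strains among the 8 genes, and for Cnr1, which rose most in a wider list of pathway genes described below, so that the loci can be followed. Each is the 250 bases before the start annotated by RefSeq on GRCm38.p6, written 5′ to 3′ on the strand of the gene, with every CG dinucleotide in capitals. They come from the C57BL/6J reference and not from the strains sequenced here. The Faah stretch is chr4:116017925-116018174 on the minus strand, the Mgll stretch chr6:88724162-88724411 on the plus strand and the Cnr1 stretch chr4:33924014-33924263 on the plus strand.
Faah: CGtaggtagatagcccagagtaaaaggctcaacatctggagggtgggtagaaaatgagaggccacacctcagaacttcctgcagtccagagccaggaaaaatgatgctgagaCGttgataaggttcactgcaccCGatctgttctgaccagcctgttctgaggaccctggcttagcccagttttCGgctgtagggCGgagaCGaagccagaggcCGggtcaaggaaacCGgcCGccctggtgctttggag
Mgll: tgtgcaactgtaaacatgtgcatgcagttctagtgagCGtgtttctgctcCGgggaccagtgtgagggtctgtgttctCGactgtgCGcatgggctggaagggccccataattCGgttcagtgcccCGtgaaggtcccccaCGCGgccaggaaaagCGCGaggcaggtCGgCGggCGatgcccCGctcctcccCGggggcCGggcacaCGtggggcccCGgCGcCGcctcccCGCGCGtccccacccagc
Cnr1: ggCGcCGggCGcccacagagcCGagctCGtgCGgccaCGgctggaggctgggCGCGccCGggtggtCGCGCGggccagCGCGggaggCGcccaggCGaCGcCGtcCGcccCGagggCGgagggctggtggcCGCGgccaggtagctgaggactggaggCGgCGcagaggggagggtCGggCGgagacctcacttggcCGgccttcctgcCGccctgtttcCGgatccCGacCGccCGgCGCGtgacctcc

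Faah had 9 CG dinucleotides in this window, Mgll 23 and Cnr1 36, against a median of 6 over 32851 promoters of the same length. Of those promoters 59.7% had fewer than Faah, 86.7% fewer than Mgll and 97.4% fewer than Cnr1. The GC box GGGCGG, which overlaps a CG dinucleotide, was searched on both strands and occurred 2 times before Faah, 5 times before Cnr1 and 0 times before Mgll, and at least 1 time in 32.7% of all promoters. The motifs TATAAA (in 12.4% of promoters), CCAAT (33.8%) and GAGGAAG (10.6%), on either strand, had 0 matches before all 3 genes. Of the 8 genes, 6 matched the promoter table, and the start of Cnr1 in that table lies before its GENCODE start. The bases just after that Cnr1 start were not found in a GENCODE transcript of the gene, whereas those of Faah and Mgll were. The Cnr1 window and its counts therefore rest on the RefSeq start alone.

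Faah encodes the membrane hydrolase that ends anandamide signalling (chromosome 4, 115967145 to 116017926, minus strand, mm10). The BL/10 libraries held 2789 and 2014 Faah reads, while the NOD.B10 libraries held 140 and 194. In counts per 1000000 reads over library sizes scaled by the TMM method (CPM) these were 94.2 and 78.0 against 7.25 and 7.60. Both NOD.B10 libraries lay far below both BL/10 libraries, with means of 86.1 ± 11.4 CPM for BL/10 and 7.42 ± 0.242 CPM for NOD.B10 (SD, n = 2), an 11.6-fold difference of the means and a log2 fold change of −3.53. By rank, 315 of the 13075 genes tested had a lower log2 fold change. The transcript was not absent from NOD.B10, since 140 reads or more were counted in each library. No other annotated gene overlaps Faah.

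Cnr2, which encodes the CB2 receptor (chromosome 4, 135895394 to 135920207, plus strand), was the most abundant of the 8 genes. It had 10604 and 9253 reads in BL/10 and 8705 and 11706 reads in NOD.B10, or 358 and 359 CPM against 451 and 458 CPM. The pairs did not overlap, and each strain's libraries lay close together. The rise was 1.27-fold, from 358 ± 0.374 to 455 ± 5.16 CPM (log2 fold change 0.34, SE 0.097, 95% interval 0.13 to 0.55, adjusted p = 0.0289 by edgeR). The call needed both NOD.B10 libraries: with the first left out the adjusted p was 0.163 and with the second left out 0.167, at log2 fold changes of 0.34 and 0.33. Relative to the summed CPM of 10 B cell markers, Cnr2 stood at 3.84% and 3.76% in BL/10 and at 4.34% and 4.17% in NOD.B10. That sum was itself higher in NOD.B10, as given below.

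Mgll, the principal hydrolase of 2-arachidonoylglycerol in most tissues (chromosome 6, 88724412 to 88828360, plus strand), was weakly expressed and higher in NOD.B10. It had 55 and 56 reads in BL/10 and 140 and 167 reads in NOD.B10, which are 1.86 and 2.17 CPM against 7.25 and 6.54 CPM. Every NOD.B10 value was above every BL/10 value. The rise was 3.42-fold, from 2.01 ± 0.221 to 6.90 ± 0.506 CPM (log2 fold change 1.77, SE 0.327, 95% interval 1.07 to 2.48, adjusted p = 0.00231 by edgeR). The direction is therefore opposite to that of Faah, the hydrolase of the other ligand. An antisense gene, Gm26588, shares 167 exonic bases with Mgll in the GENCODE annotation and is not among the gene symbols counted. The deposited length of Mgll is 4628 bases. Since the strand setting of the counting was not given, reads from the shared bases cannot be assigned to either gene.

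Abhd12, a membrane hydrolase that also acts on lysophosphatidylserine (chromosome 2, 150832493 to 150904741, minus strand), rose as well. Its counts were 1801 and 1393 reads in BL/10 and 1618 and 2083 reads in NOD.B10. On the CPM scale the BL/10 libraries stood at 60.8 and 54.0 and the NOD.B10 libraries at 83.8 and 81.6, without overlap. The means were 57.4 ± 4.83 and 82.7 ± 1.61 CPM, a 1.44-fold rise (log2 fold change 0.53, SE 0.12, 95% interval 0.27 to 0.79, adjusted p = 0.00937 by edgeR). Abhd12 was 0.652% and 0.565% of the summed B cell marker CPM in BL/10 and 0.807% and 0.743% in NOD.B10, so the order of the strains was the same on that scale.

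Abhd6, a hydrolase of monoacylglycerols at the inner face of the membrane (chromosome 14, 8002902 to 8056763, plus strand), was not called. Its levels were 11.9 and 13.9 CPM in BL/10 and 14.2 and 16.3 CPM in NOD.B10, from 274 to 416 reads a library. The strains did not overlap, but the gap between them was smaller than the gap within each of them. The log2 fold change was 0.25 with a 95% interval of −0.18 to 0.67 (adjusted p = 0.493 by edgeR), so a rise of the size seen for Abhd12 lies within that interval.

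The enzymes of synthesis gave no call. Napepld (chromosome 5, 21662901 to 21701396, minus strand) stood at 6.55 and 4.65 CPM in BL/10 and 6.06 and 5.29 CPM in NOD.B10, and the NOD.B10 values lay between the BL/10 values. Its log2 fold change was 0.01 with a 95% interval of −0.62 to 0.65 (adjusted p = 0.983 by edgeR). Daglb (chromosome 5, 143464584 to 143505942, plus strand), the diacylglycerol lipase best known from macrophages, stood at 41.2 and 34.5 CPM in BL/10 and 39.9 and 33.0 CPM in NOD.B10, and the strains overlapped. Its log2 fold change was −0.06 with a 95% interval of −0.39 to 0.27 (adjusted p = 0.872 by edgeR). Daglb shares 2309 exonic bases with Rac1 on the opposite strand in the GENCODE annotation. The deposited gene lengths, from an annotation not given, are 3242 bases for Daglb and 2269 for Rac1. How many of the counted bases are shared is therefore not known. Rac1 was the more abundant at 212 ± 9.67 and 200 ± 4.26 CPM, so the Daglb count is uncertain.

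Dagla (chromosome 19, 10245265 to 10304877, minus strand), the diacylglycerol lipase best known from the nervous system, had 20 and 2 reads in BL/10 and 5 and 8 reads in NOD.B10. These are 0.675 and 0.0775 CPM against 0.259 and 0.313 CPM, with 95% Poisson intervals for counting error of 0.412 to 1.04, 0.00939 to 0.28, 0.0841 to 0.605 and 0.135 to 0.617 CPM. The BL/10 libraries differed 8.71-fold from each other and spanned the NOD.B10 values. It did not pass the filter on low counts, and with no filter its adjusted p was 0.878, so a difference was not detectable at this depth.

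**Figure D1:**
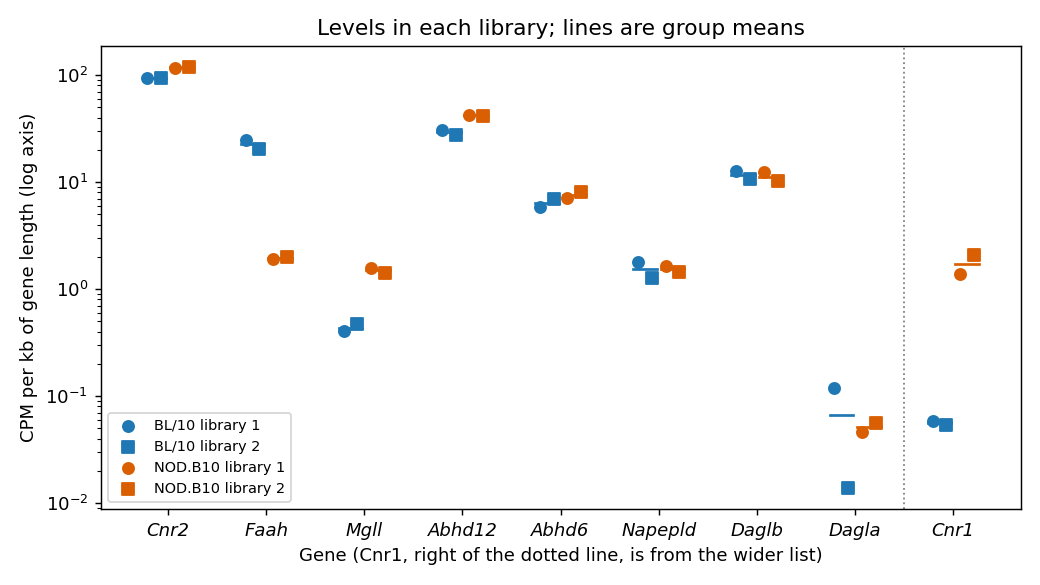
Levels of the 8 genes and of Cnr1 in each of the 4 libraries, as CPM per kb of gene length on a log axis, with circles and squares for the first and second library of a strain and short lines for the group means. Faah lies near 22.6 in BL/10 and near 1.95 in NOD.B10, Mgll and Cnr1 lie higher in NOD.B10, and Cnr2 has the highest level in every library.

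Divided by gene length in kb, the levels can be compared between genes. In both BL/10 libraries the order was Cnr2, Abhd12, Faah, Daglb, Abhd6, Napepld, Mgll and Dagla, with mean levels of 92.8, 29.2, 22.6, 11.7, 6.38, 1.52, 0.435 and 0.0668 CPM per kb. No 2 neighbours in this order overlapped between libraries. In both NOD.B10 libraries Faah stood behind Daglb and Abhd6, at 1.90 and 1.99 CPM per kb. Napepld (1.65 and 1.44) and Mgll (1.57 and 1.41) overlapped there, so their order is not beyond the spread. Among the mean per-length levels of all genes tested, Faah lay above 74.5% of genes in BL/10 and above 24.4% in NOD.B10, and Mgll above 10.0% and 21.9%. Cnr2 lay above 95.7% and 97.0%, Abhd12 above 80.9% and 88.0%, Daglb above 56.0% and 54.9%, Abhd6 above 41.4% and 45.1% and Napepld above 21.6% and 22.2%.

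Ratios of these per-length levels within a library do not depend on library scaling, and are given with no test, since 2 libraries against 2 cannot reach a small permutation p. The level of the anandamide hydrolase over that of NAPE-PLD (Faah over Napepld) was 13.8 and 16.2 in BL/10 and 1.15 and 1.38 in NOD.B10. Daglb over Mgll was 31.7 and 22.7 in BL/10 and 7.86 and 7.20 in NOD.B10. Abhd12 made up 83.1% and 78.9% of the summed per-length level of the 3 hydrolases Mgll, Abhd6 and Abhd12 in BL/10 and 83.2% and 81.4% in NOD.B10. Mgll made up 1.08% and 1.35% of it in BL/10 and 3.06% and 2.77% in NOD.B10. Abhd12 was thus the main hydrolase transcript of the 3 in every library, and the share of Mgll stayed small where its level was higher.

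A wider list of 50 genes of the pathway in the table was described beside the 8. Of these, 35 passed the filter on low counts, 4 were called higher and 4 lower (11.4% in each direction), against 6.55% and 8.63% of all genes tested, and the median log2 fold change was 0.05. The count of higher genes fell to 2 without the second BL/10 library and to 1, Cnr1, without the first NOD.B10 library.

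Of 9 receptors and channels, 6 were tested and 1, Cnr1, was called. Cnr1 (chromosome 4, 33924593 to 33948831, plus strand) encodes the CB1 receptor. It had 10 and 8 reads in BL/10 and 154 and 308 reads in NOD.B10, or 0.338 and 0.310 CPM against 7.98 and 12.1 CPM. Both BL/10 libraries were near the limit of detection and both NOD.B10 libraries far above it. The means were 0.324 ± 0.0195 and 10.0 ± 2.89 CPM (log2 fold change 4.93, SE 0.41, adjusted p = 2.56e-06 by edgeR), and the fold from pooled reads was 31.7 with a 95% interval for counting error of 19.8 to 54.0. Per length, Cnr1 in NOD.B10 stood at 1.73 ± 0.497 CPM per kb against 118 for Cnr2 in the same libraries at their mean, so the CB2 transcript was the more abundant of the pair in both strains. Gpr18, a receptor reported to respond to N-arachidonoylglycine, the channel Trpv2 and the nuclear receptor Ppard were well expressed and not called, with log2 fold changes of 0.24, −0.22 and 0.05. Gpr119 and Trpv1 had 0 reads in all libraries, a limit of 0.0541 CPM for BL/10 and 0.0669 CPM for NOD.B10 (3 reads over the group).

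None of the 5 receptor partners was called, including Gnai2, which encodes the inhibitory G protein alpha subunit abundant in lymphocytes (694 ± 22.8 and 738 ± 6.58 CPM, log2 fold change 0.09), Gnai3 and Gprasp1. None of the 4 tested genes of other N-acylethanolamine routes was called either, among them Gde1, Pla2g16 and Abhd4 with log2 fold changes of −0.01, 0.17 and −0.47. Of 5 tested hydrolases 1 was lower: Asah1, acid ceramidase, at 45.5 and 48.3 CPM for BL/10 against 32.0 and 31.8 CPM (log2 fold change −0.56, SE 0.132, adjusted p = 0.0118 by edgeR). Naaa, the lysosomal amidase of N-acylethanolamines and the closest in function to Faah, was not called, at 43.0 ± 4.16 and 48.9 ± 3.69 CPM (log2 fold change 0.18).

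Among carriers, 4 were tested. Scp2, a sterol and lipid carrier, rose from 43.2 ± 6.63 to 61.6 ± 5.63 CPM (adjusted p = 0.026 by edgeR). The call of Scp2 needed the first library of each strain (adjusted p = 0.123 with that of BL/10 left out and 0.153 with that of NOD.B10 left out). Hspa1a, a heat shock protein with a near-identical copy, fell from 2.20 ± 0.01 CPM to 0.208 ± 0.0724 CPM, with 9 reads in NOD.B10. Of the genes that supply diacylglycerol, Plcg1, the phospholipase C of T cell receptor signalling, fell from 49.98 ± 5.30 to 33.2 ± 0.66 CPM (adjusted p = 0.00969 by edgeR). Plcb2 rose from 129 ± 6.97 to 165 ± 2.02 CPM (adjusted p = 0.0403 by edgeR), a call that needed the second BL/10 library and both NOD.B10 libraries (adjusted p from 0.102 to 0.204 with 1 of them left out). Plcg2, the phospholipase C of the B cell receptor, was not called at 687 ± 52.6 and 799 ± 38.1 CPM.

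Pla2g4a, the phospholipase that frees arachidonate, rose from 1.86 and 1.86 CPM to 5.65 and 4.19 CPM (log2 fold change 1.40, SE 0.369, adjusted p = 0.0204 by edgeR). That call was lost with either BL/10 library left out (adjusted p = 0.0713 and 0.0679) and with the first of NOD.B10 left out (adjusted p = 0.0799). Of 6 genes listed with the oxygenases, 3 were tested and 1, Alox5, was called lower. Alox5ap stood at 3.55 and 5.39 CPM in BL/10 against 2.02 and 1.84 CPM in NOD.B10 and was not called (adjusted p = 0.0511 by edgeR), though it was with no filter. The oxygenase Alox5, which starts leukotriene synthesis, had 24 and 15 reads in BL/10 and 0 in both NOD.B10 libraries. It was at least 10.4-fold lower, computed against 3 reads over the group (adjusted p = 0.0101 by edgeR), a call that was lost when the first BL/10 library was left out (adjusted p = 0.0782). The bound was 5.92-fold or 4.48-fold with the first or second NOD.B10 library left out. In the same libraries the summed neutrophil, mast cell and macrophage marker levels were lower, as given below. The part of those cells in the Alox5 result was not tested.

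**Figure D2:**
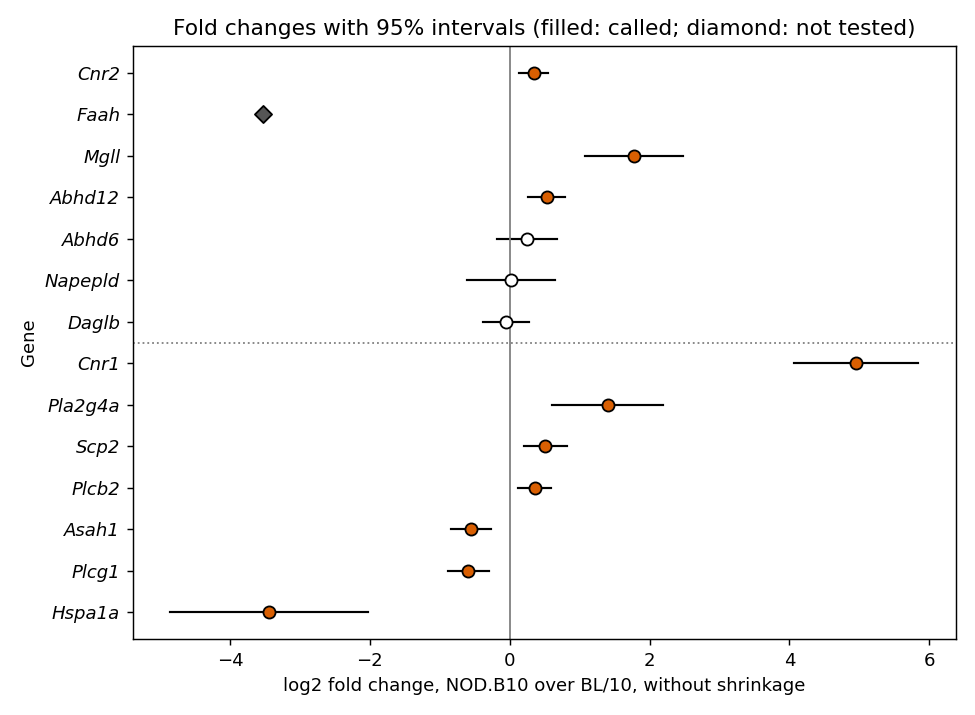
Log2 fold changes of NOD.B10 over BL/10 without shrinkage, with 95% intervals from the edgeR fit, for 7 of the 8 genes (above the dotted line) and for 7 called genes of the wider list. Filled points were called, open points were not, and Faah is a grey diamond with no interval because it was picked for its difference; Alox5, with 0 reads in NOD.B10, is not drawn. Of the genes drawn, Cnr1 lies farthest to the right and Faah farthest to the left, and the intervals of Abhd6, Napepld and Daglb cross 0.

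The sorted cells were checked against marker genes, because bulk RNA cannot separate fewer cells of a type from less RNA per cell. The summed level of 10 B cell markers was 9323 and 9547 CPM in BL/10 and 10385 and 10979 CPM in NOD.B10, with 1 of the 10, Fcer2a, called higher. Cr2, which was not called, and Fcer2a rose most in CPM, from means of 983 to 1607 and of 857 to 1270. The summed level of 17 T cell markers was 535.9 and 629 CPM in BL/10 and 59.0 and 59.9 CPM in NOD.B10, 9.8-fold lower, and all 17 were called lower. Of the NOD.B10 sum, 42.1 CPM on average came from Lck alone, and Trat1 was at 0 reads there. Called lower as well were 6 of 6 tested natural killer cell, 3 of 7 macrophage and 3 of 7 dendritic cell markers. So were 2 of 4 neutrophil, 3 of 3 mast cell and 3 of 3 erythroid markers, and no marker of these lists was called higher. The dendritic cell list was mixed, with sums of 234 and 218 CPM in BL/10 and 186 and 158 CPM in NOD.B10. Its marker Zbtb46, not called, stood at 1.59 and 3.29 CPM in BL/10 against 4.92 and 4.78 CPM in NOD.B10. In the stromal and endothelial list 0 of 3 tested genes were lower and 1, Pdgfrb, was higher. Pdgfrb had 0 and 2 reads in BL/10 and 29 and 18 in NOD.B10 (log2 fold change 4.72, adjusted p = 0.0103 by edgeR). The sums of that list were 368 and 359 CPM in BL/10 and 417 and 427 CPM in NOD.B10. Most of each sum was Pecam1, which was not called, at means of 361 and 419 CPM. Cdh5 was not called either (log2 fold change −0.47). The untested Pdgfra (8 and 2 reads in BL/10) and Col1a2 (4 and 6) had 0 reads in NOD.B10, so the list had no common direction. The natural killer sums ran from 14.96 to 26.5 CPM in BL/10 and from 2.85 to 3.92 CPM in NOD.B10, and the macrophage sums from 126 to 131 and from 37.9 to 50.4 CPM. Of the macrophage sums, Apoe alone gave 81.0 and 80.8 CPM in BL/10 and 16.7 and 17.6 CPM in NOD.B10. Lyz2 of that list overlapped between the strains. The mast cell sums ran from 3.48 to 4.46 CPM in BL/10 and were 0 in NOD.B10, and the neutrophil sums ran from 3.82 to 7.32 and from 0.311 to 0.783 CPM. The erythroid sums were 187 and 297 CPM in BL/10 and 9.74 and 4.27 CPM in NOD.B10, and most of each was Alas2.

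The Faah level moved with the T cell markers between strains but not between the BL/10 libraries. Natural killer, neutrophil, mast cell and erythroid marker sums were lower in NOD.B10 too, so the shared direction was not particular to T cells. Faah CPM equalled 17.6% and 12.4% of the T cell marker sum in BL/10 and 12.3% and 12.7% in NOD.B10. In NOD.B10, Lck gave 38.3 and 45.9 CPM of sums of 59.0 and 59.9 CPM. Its log2 fold change of −0.73 was the least negative of the 17 markers, so the NOD.B10 percentages depend largely on Lck. The first BL/10 library had the higher Faah level (94.2 against 78.0 CPM) and the lower T cell sum (535.9 against 629 CPM). Of the 17 T cell markers, 14 had a lower log2 fold change than Faah and 3 a higher one. The part of other cells in the Faah difference was not tested. Cnr1, Cnr2, Mgll and Abhd12 were higher in NOD.B10, where the T cell marker sum was lower and the B cell marker sum higher. The part of the cell mix in these rises was not tested.

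**Figure D3:**
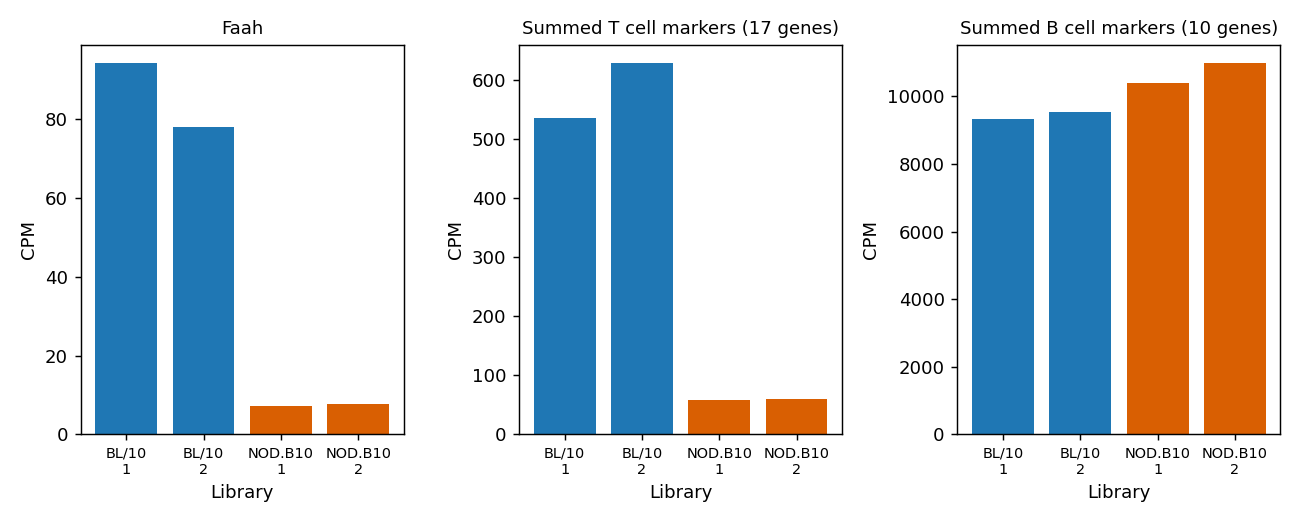
CPM of Faah, of the sum of 17 T cell markers and of the sum of 10 B cell markers in each library, as bars from 0. Faah and the T cell sum are both low in the NOD.B10 libraries, the first BL/10 library has more Faah and a smaller T cell sum than the second, and the B cell sum is between 9323 and 10979 CPM throughout.

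The genes around Faah did not share its low level in NOD.B10. Within 250 kb of Faah, 16 genes of the table are annotated, 13 were tested, 3 were called higher (23.1%, against 6.55% of all genes tested) and 0 lower. The nearest tested genes were Nsun4, a mitochondrial RNA methyltransferase 14.9 kb from the promoter end of Faah, and Mknk1, a kinase 87.9 kb from its other end. Neither was called, with 30.4 and 32.7 CPM for Nsun4 and 41.4 and 45.3 CPM for Mknk1 as means of BL/10 and NOD.B10. Of the 3 called genes, Lurap1 stood at 4.997 and 7.56 CPM for BL/10 against 17.4 and 19.5 CPM (log2 fold change 1.56, adjusted p = 5.44e-04 by edgeR). Pik3r3, a regulatory subunit of phosphoinositide 3-kinase, and Mob3c had log2 fold changes of 1.01 and 0.53 (adjusted p = 0.0435 and 0.0418). Both of these calls needed both BL/10 libraries (adjusted p from 0.0732 to 0.161 with 1 of them left out). With a NOD.B10 library left out, Mob3c had an adjusted p of 0.106 or 0.136, and Pik3r3 one of 0.15 when it was the second.

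**Figure D4:**
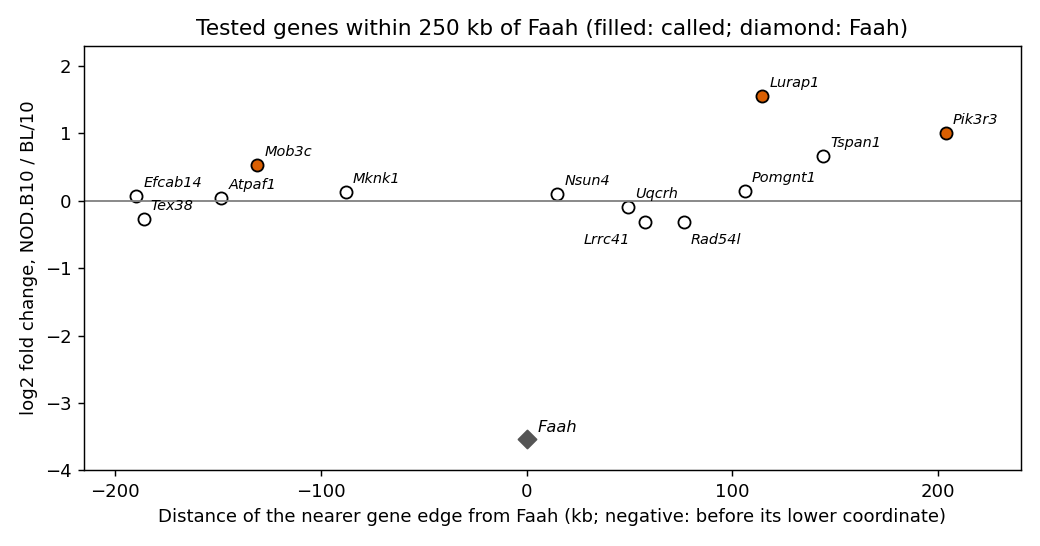
Log2 fold change of NOD.B10 over BL/10 for the 13 tested genes within 250 kb of Faah against the distance of their nearer edge from Faah in kb. Filled points were called and Faah is the grey diamond at −3.53, while the other genes lie between −0.32 and 1.56.

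Around the other 7 genes, 5 of 60 tested genes were called in either direction (8.33%, against 15.2% of all genes tested). These were 1 of 11 near Dagla, 1 of 10 near Daglb, 2 of 8 near Napepld and 1 of 6 near Abhd6. Of 10 tested genes near Cnr2, 7 near Mgll and 8 near Abhd12, 0 were called in either direction by edgeR. The tested genes nearest on each side were Pnrc2 and Fuca1 for Cnr2, Sec61a1 and Abtb1 for Mgll, and Pygb and Gins1 for Abhd12. Near Dagla the desaturase Fads1, which acts in the synthesis of arachidonate, fell from 2.53 and 2.87 CPM to 0.725 and 0.313 CPM (adjusted p = 0.011 by edgeR). The call of Fads1 was lost with the second BL/10 library left out. Its log2 fold change of −2.40 ranged from −3.10 to −1.89 over the alternative fits given below. Near Abhd6, Dnase1l3, a secreted DNase, fell from 12.6 to 3.34 CPM (adjusted p = 5.14e-04 by edgeR). Near Napepld, Reln was lower, with 536 reads in BL/10 and 1 read in NOD.B10. Ccdc146, also near Napepld, was higher with a log2 fold change of 3.18. That became 3.83 with the first BL/10 library left out and 2.75 with the second left out. The fold of Reln from pooled reads was 434, with a 95% interval for counting error of 77.5 to 17161, and its BL/10 levels differed between libraries (14.3 and 4.38 CPM). Near Daglb, Fam220a was lower with a log2 fold change of −0.65, which had an adjusted p of 0.0976 with the second BL/10 library left out.

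The 5 genes whose log2 CPM over the 4 libraries lay closest to those of Faah were Oas3, Trim12c, Cbx6, Sdc3 and Ceacam1, with Euclidean distances from 0.79 to 1.38. Oas3, an antiviral RNA sensor, was the closest, at 60.3 and 57.2 CPM in BL/10 and 7.56 and 7.13 CPM in NOD.B10. Cbx6, a Polycomb protein, stood at 55.2 and 44.3 CPM against 6.99 and 5.68 CPM. With 4 libraries in 2 groups, this likeness describes mainly the level in each strain, and since the genes were picked for it, no test is given.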

How the data were processed

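RNA from sorted B cells of the cervical lymph nodes was sequenced in 2 BL/10 and 2 NOD.B10 libraries. The authors deposited read counts per gene symbol with a gene length and no normalisation. The submitters' processing notes name HISAT2 2.1.0, SAMtools 1.3, Subread 1.6.5, featureCounts and mm10; the annotation, strand setting and treatment of multiply aligned reads are not given in those notes or labels. Columns were matched to samples by library name.

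Groups were compared with the two-sided quasi-likelihood test of edgeR 4.0.16 in R 4.3.3 (glmQLFTest after a robust glmQLFit), with TMM factors and filterByExpr (minimum count 10, minimum total 15), and Benjamini-Hochberg adjustment over the 13075 genes tested. SE and 95% intervals were derived from the F statistic and the fold change without shrinkage. The alternatives were RLE and upper-quartile factors, DESeq2 1.42.0, limma-voom (limma 3.58.1), no filter, a stricter filter (minimum count 30, minimum total 60), non-robust dispersion, a replicate block and leaving out each library. The procedure was tested on simulated data with the same dispersion for every gene and changes planted only in well-counted genes. That simulation does not cover changes in low-count genes or a replicate spread that varies between genes. Gene positions are from GENCODE on mm10, and promoters from RefSeq. Replicates differed by more than sampling noise (chi-square per degree of freedom 43.1 and 18.7). Poisson intervals and limits cover counting error only.

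The members and lists were chosen with earlier results of these data known. Named are the 8 genes, called genes of the wider list, up to 3 abundant ones per role, the nearest tested and all called genes within 250 kb, and the 5 genes nearest to Faah in log2 CPM (prior count 2), unnamed gene models left out; other genes were named after their values were seen.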

Additional observations from a re-analysis of the deposited data

How the results depend on the processing

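The fold changes of the 7 members that passed the filter and of the called genes of the wider list and the neighbours, and the counts of calls among members and wider list, were recomputed under 12 alternatives, or 11 for Alox5, which the stricter filter drops. Levels, ratios, marker lists and counts of neighbours were not recomputed. The log2 fold change of Faah ranged from −3.67 to −3.39, that of Mgll from 1.66 to 1.88 (adjusted p from 1.51e-05 to 0.00932) and that of Abhd12 from 0.44 to 0.61 (adjusted p from 7.96e-04 to 0.0334), and neither Mgll nor Abhd12 lost its call. Cnr2 kept its direction and size but lost its call with a replicate block (log2 fold change 0.34, adjusted p = 0.0554) and without either NOD.B10 library (0.33 and 0.34). The sign of 2 uncalled genes turned: with 1 library left out, Daglb ran from −0.21 to 0.077 and Napepld from −0.21 to 0.28. The wider list had from 1 to 3 genes called higher with 1 library left out, against 4 with all (2 without the second BL/10 library, 1 without the first NOD.B10 library), and from 3 to 5 called lower over all alternatives. The cause of these shifts was not tested. The replicate numbers are not said to mark a shared animal or day, and the deviations of same-numbered libraries correlated at −0.02 over genes. With the block, 760 genes were called higher and 1042 lower, against 857 and 1129. Among the called genes of the wider list and the neighbours, whose alternatives were added after the data were seen, the block ended the calls of Plcb2, Mob3c and Pik3r3 (adjusted p = 0.0644, 0.0573 and 0.066). DESeq2 ended those of Mob3c and Pik3r3 (adjusted p = 0.0583 and 0.0626), and non-robust dispersion that of Pik3r3 (adjusted p = 0.0514). Depth limits Dagla, with 35 reads in all libraries together, and Cnr1 and Alox5 in the strain where they are low.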
